A study of Mus musculus with 9 samples.

Results

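Genes used as markers of tubular injury and repair were followed in whole kidneys of young and old mice. The list holds 10 symbols (Havcr1, Lcn2, Vcam1, Spp1, Krt8, Krt18, Clu, Sox9, Vim and Cp), taken as a list of symbols, with no threshold on measured values, out of 13081 genes in the deposited table. Of these, 8 were matched by symbol and all 8 passed the filter on low values, among 12667 genes tested. Havcr1 and Lcn2 were not analysed here. The samples were kidneys from wild-type mice (the study's animals were C57BL/6) with no treatment or engineered allele stated, harvested at 3 months (young, n = 4) or 16 months (old, n = 5). RNA was read from the 3' ends of transcripts. The sex of the mice behind each library is not given in the sources used here.

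When the epithelium of a kidney tubule is damaged, surviving cells lose part of their specialised state, spread over the bared membrane, divide and then regain it. Havcr1 (KIM-1) and Lcn2 (NGAL) are the classical early damage markers. Sox9 is a transcription factor switched on in repairing cells, Vcam1 is a leukocyte adhesion molecule kept on by cells whose repair fails, Krt8, Krt18 and Vim form intermediate filaments, and Spp1, Clu and Cp encode secreted proteins that rise with damage. Several of these genes are also active in undamaged kidney: the keratins in collecting duct and in the urothelium that lines the renal pelvis, Vim in endothelium, podocytes and stroma, and Spp1 in thick ascending limb. In whole kidney RNA, fewer cells of a type and less RNA per cell cannot be told apart.

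The table held 4486406 to 6355095 reads per library. The library titles carry a different prefix for each age, so age and anything else that goes with the prefix cannot be told apart. The age groups differed over much of the transcriptome: 59.7% of all genes tested passed limma's test at a Benjamini-Hochberg adjusted p of 0.05 (such genes are termed called), 29.2% with higher and 30.5% with lower values in old. Mitochondrial genes took 27.0% to 29.7% of reads in young and 35.8% to 38.1% in old libraries. Markers of urothelium and fat varied widely between libraries of 1 age. The urothelial markers Psca and Upk3a together had 475 normalised counts in old replicate 3, against 1.87 to 37.7 in the other old libraries, and 62.2 in young replicate 2 against 4.90 to 17.2 in the other young libraries. Adipoq, an adipocyte hormone gene, was the highest of its age in the same libraries, at 189 in old replicate 3 and 40.8 in young replicate 2, and old replicate 1 had 71.9. Changes that turn on old replicate 3 or young replicate 2 are given with and without them.

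Of the 8 members tested, 4 were called higher in old kidneys (Sox9, Vcam1, Clu and Cp), 2 were called lower (Vim and Spp1) and 2 were not called (Krt8 and Krt18). These 6 of 8 stand beside the 59.7% of all genes, and so few members do not set the list apart. The groups did not overlap in 4 members, beside 49.0% of all genes tested, with old above young in 3 (23.3% of all genes) and below in 1 (25.7%). A change of at least 1.5-fold that was also called was seen in 3 members, beside 45.1% of all genes. The median log2 fold change was 0.30 for the members and -0.0027 for all genes tested, and the median size of change over all genes was 0.56. The changes of Vcam1, Clu, Sox9 and Vim kept their call and direction under every alternative in which they were tested, while those of Spp1 and Cp did not.

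**Figure D1:**
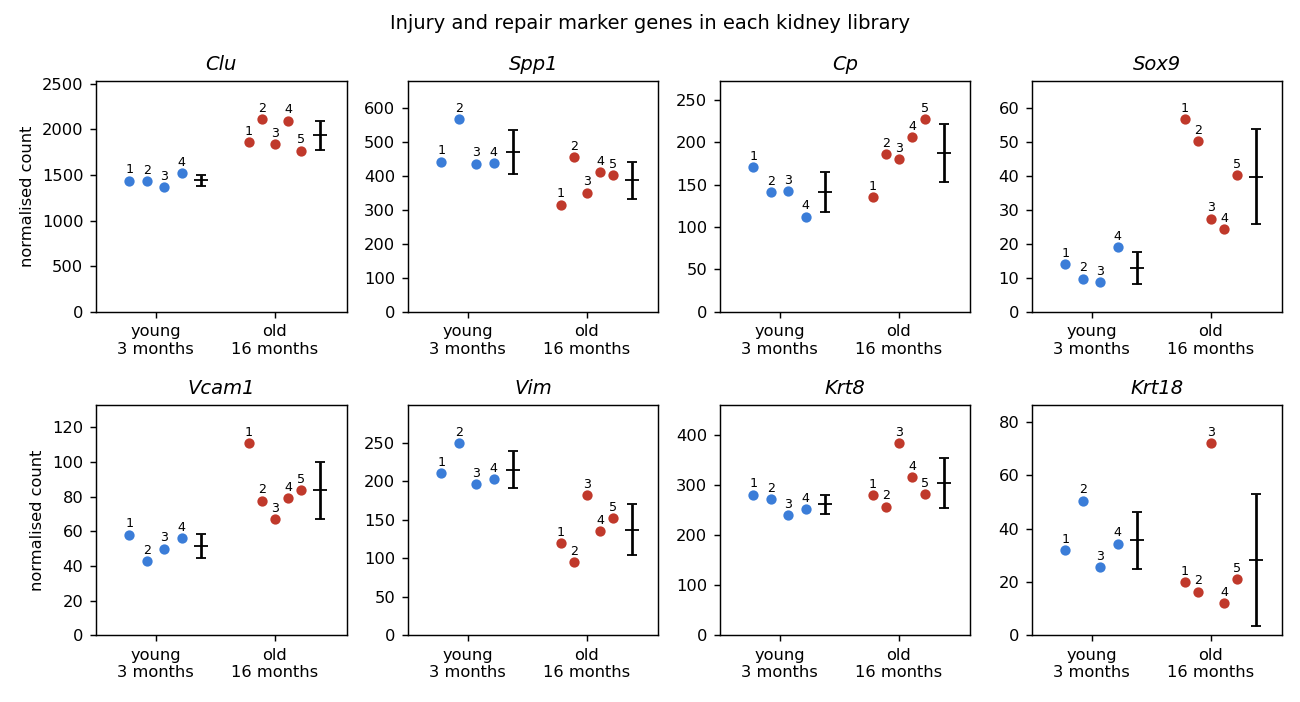
Normalised read counts (vertical axes, from 0) of the 8 members in the 4 young (blue) and 5 old (red) kidney libraries; digits are replicate numbers and black bars show the mean ± SD. All old libraries lie above all young libraries for Sox9, Vcam1 and Clu and below them for Vim, and old replicate 3 stands highest of the old libraries for Krt8, Krt18 and Vim.

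Sox9 had the largest rise of the members. It encodes a transcription factor of progenitor and repairing tubule cells, and the gene lies on chromosome 11 (112782224 to 112787760, GRCm38, GENCODE vM21). Its normalised counts were 13.9, 9.72, 8.82 and 19.0 in young replicates 1 to 4 and 56.6, 50.3, 27.4, 24.3 and 40.3 in old replicates 1 to 5. Each old library was above each young library, with the old libraries spread over more than the whole young range. The mean went from 12.9 ± 4.66 (SD, n = 4) to 39.8 ± 14.0 (SD, n = 5), which is 1.54 on the log2 scale (SE 0.30, limma adjusted p = 0.000229). Only 9.54% of genes tested changed by more in size. The young values stand on 9 to 21 reads, so the gene passed the filter on low values through its old libraries. The log2 fold change ran from 1.40 to 1.74 when a library was left out. It was 1.55 on the log2 scale without young replicate 2 and old replicate 3. Per 1000 thick ascending limb and distal tubule marker counts the ages overlapped (0.650 to 1.38 against 1.05 to 2.94). They overlapped per 1000 podocyte and parietal (8.02 to 17.9 against 16.2 to 38.1) or macrophage marker counts (7.35 to 13.6 against 12.5 to 35.2). The podocyte and macrophage ratios came apart without the most abundant gene of each list. The ages were apart per 1000 proximal tubule, collecting duct, endothelial or fibroblast marker counts.

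Vcam1, which encodes a cell surface ligand for leukocyte integrins, also rose. Its normalised counts were 58.1, 42.8, 50.004 and 56.1 in the young and 111, 77.7, 66.9, 79.3 and 83.8 in the old libraries. The ages did not overlap, and old replicate 1 was the highest. The mean rose from 51.8 ± 6.93 (SD, n = 4) to 83.7 ± 16.4 (SD, n = 5), a log2 difference of 0.67 (95% interval 0.31 to 1.04, limma adjusted p = 0.00263). Endothelium and macrophages carry Vcam1 too. The summed level of 10 endothelial markers was 2069 to 2247 normalised counts in young and 2580.5 to 2915 in old libraries, with 5 of 10 called higher, 0 lower and 5 not called. That of 9 macrophage markers was 1200.0 to 1396 in young and 1431 to 2027 in old, with 4 called higher, 1 lower and 4 not called. Beside these 5 of 10 and 4 of 9 stand the 29.2% of all genes called higher. Per 1000 counts of the endothelial markers, Vcam1 stood at 20.7 to 26.7 in young and 23.0 to 41.8 in old libraries, so the ages overlapped on that scale, as they did per 1000 macrophage marker counts (35.6 to 41.9 against 40.8 to 64.0). Per 1000 counts of the proximal tubule markers they did not overlap, at 0.171 to 0.248 in young and 0.397 to 0.615 in old. Without Kap, an androgen-regulated gene that made up 49.9% to 67.3% of these counts, the values were 0.522 to 0.671 in young and 0.941 to 1.44 in old. The part of each cell type in the rise was not tested.

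Clu, which encodes the secreted chaperone clusterin, rose by a smaller factor with little spread. The gene lies on chromosome 14 (65968483 to 65981547, GRCm38, GENCODE vM21). Its normalised counts were 1439, 1437, 1371 and 1520.0 in the young and 1860.0, 2109, 1837, 2096 and 1766 in the old libraries. No old library came within the young range. The mean was 1442 ± 61.1 (SD, n = 4) in young and 1934 ± 158 (SD, n = 5) in old kidneys, or 0.42 higher on the log2 scale (SE 0.09, limma adjusted p = 0.000486). This change was smaller in size than that of 61.5% of genes tested. The summed level of the 9 thick ascending limb and distal tubule markers was also higher in old, at 18383 to 23195 normalised counts against 13572 to 14251 in young, with 4 called higher, 2 lower and 3 not called. Per 1000 of these counts Clu stood at 101 to 110.1 in young and 83.3 to 108 in old libraries, which overlapped. Without Umod (uromodulin), the most abundant marker of that list, Clu stood lower in each old library (121 to 156) than in any young library (158 to 185). Per 1000 proximal tubule marker counts it stood higher in each old library, at 5.53 to 6.72 in young and 8.37 to 12.5 in old (without Kap 16.6 to 17.9 and 20.1 to 27.9).

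Cp and Spp1, which encode the ferroxidase ceruloplasmin and the matricellular protein osteopontin, were called in opposite directions near the threshold. Cp had 170.3, 141, 142 and 112 normalised counts in the young and 136, 186, 181, 206 and 227 in the old libraries. The old libraries other than replicate 1 were above every young library. The mean rose from 141 ± 23.7 (SD, n = 4) to 187 ± 34.1 (SD, n = 5), 0.40 on the log2 scale (95% interval 0.08 to 0.72, limma adjusted p = 0.0320). That call was lost without young replicate 2 (0.0590), young replicate 3 (0.0579), young replicate 4 (0.131), old replicate 4 (0.0714) or old replicate 5 (0.0810), all adjusted p-values by limma. It was also lost when libraries were scaled to the table total (0.0570), when the length trend was removed (0.138), without old replicates 2 and 3 (0.0510) and without young replicate 2 and old replicate 3 (0.0719), and over all alternatives, edgeR and DESeq2 included, the adjusted p-value ran from 0.00478 to 0.138.

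Spp1 had 442, 566, 436 and 437 normalised counts in the young and 316, 455, 351, 412 and 402 in the old libraries. Old replicate 2 lay within the young range, and young replicate 2 stood far above the other young libraries. The mean was 471 ± 64.0 (SD, n = 4) in young and 387 ± 54.4 (SD, n = 5) in old kidneys, a log2 difference of -0.28 (95% interval -0.53 to -0.03, limma adjusted p = 0.0484). The limma call was lost without young replicates 1, 2, 3 or 4 (adjusted p 0.0621, 0.2097, 0.0574 and 0.0540) and without old replicates 1 or 3 (0.133 and 0.0932). With edgeR and DESeq2 on the recovered reads the adjusted p-values were 0.0536 and 0.0571. When a trend with transcript length was removed the log2 fold change was 0.021 (adjusted p 0.893 by limma). Spp1 also overlaps the gene Gm42793 on its own strand, so its count is uncertain. Per 1000 counts of the thick ascending limb and distal tubule markers, Spp1 was lower in each old library (16.4 to 23.3) than in any young library (31.0 to 40.3). It was also lower in each old library per 1000 endothelial marker counts (119 to 176 against 195 to 274 in young). The same held per 1000 podocyte and parietal marker counts (212 to 345 against 397 to 552) and for the lymphocyte list (295 to 1982 against 3000 to 6527). The summed level of each list on which Spp1 was lower was itself higher in each old library. Per 1000 proximal tubule marker counts the ages overlapped (1.70 to 2.26 in young and 1.75 to 2.56 in old), as they did per 1000 collecting duct, fibroblast or macrophage marker counts.

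**Figure D2:**
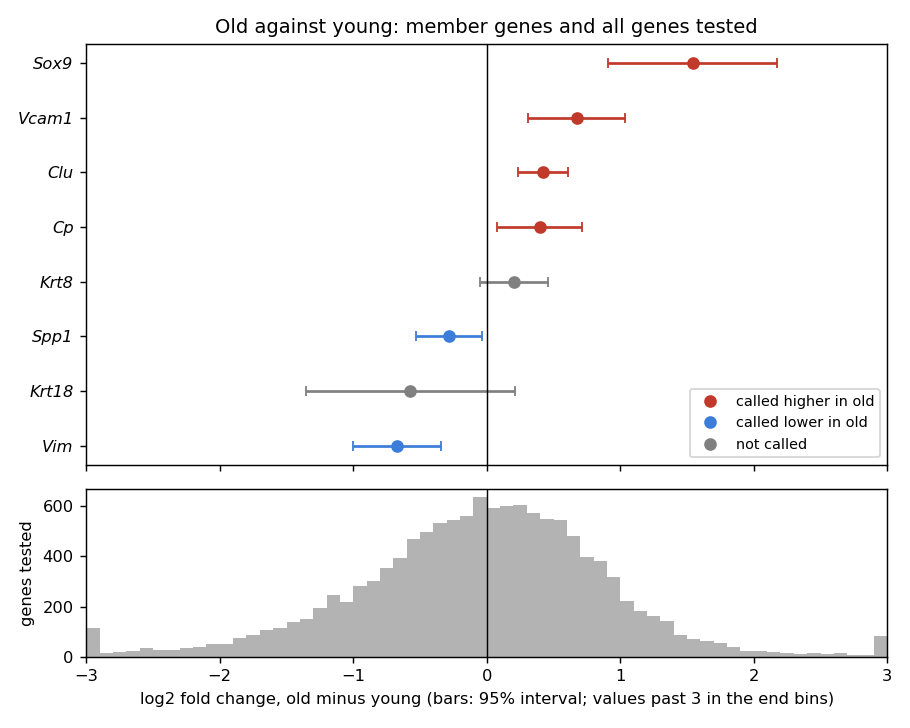
Log2 fold change of old against young kidneys (horizontal axis) for each member with its 95% interval (upper panel; red called higher, blue called lower, grey not called) and for all 12667 genes tested (lower panel, number of genes). Of the 8 members, Sox9 at 1.54 lies in the upper tail of all genes tested and the others lie between -0.67 and 0.67.

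The intermediate filament genes Vim, Krt8 and Krt18 did not share a called direction. Vimentin is the filament protein of mesenchymal and endothelial cells and of podocytes and appears in tubule cells during repair, while keratins 8 and 18 polymerise with each other in simple epithelium. Krt8 (chromosome 15, 101996698 to 102004482, GRCm38, GENCODE vM21) and Krt18 (chromosome 15, 102028180 to 102032027) are neighbours on opposite strands, with 23697 bases between them. The 250 bases before the RefSeq start of the 3 filament genes are shown because their counts were highest among the old libraries in the same library. Capitals mark matches, on either strand, to the letters searched: TATAAA for the TATA box, CCAAT for the box of that name, GGGCGG for the GC box, TGANTCA for the AP-1 site, ACAATGG for the SOX site, CACCTG for the E-box, and the NF-kB site.
Vim, chr2:13574061-13574310, plus strand, GRCm38.p6: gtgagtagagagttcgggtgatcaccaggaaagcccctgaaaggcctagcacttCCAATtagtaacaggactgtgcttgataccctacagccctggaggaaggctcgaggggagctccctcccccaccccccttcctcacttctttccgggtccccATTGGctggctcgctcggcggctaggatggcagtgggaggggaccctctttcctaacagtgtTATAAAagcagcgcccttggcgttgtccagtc
Krt8, chr15:102004343-102004592, minus strand, GRCm38.p6: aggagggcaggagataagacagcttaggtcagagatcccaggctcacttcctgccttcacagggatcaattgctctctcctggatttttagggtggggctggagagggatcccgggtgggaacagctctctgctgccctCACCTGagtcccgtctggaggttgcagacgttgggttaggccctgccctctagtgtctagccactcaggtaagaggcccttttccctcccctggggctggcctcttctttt
Krt18, chr15:102027966-102028215, plus strand, GRCm38.p6: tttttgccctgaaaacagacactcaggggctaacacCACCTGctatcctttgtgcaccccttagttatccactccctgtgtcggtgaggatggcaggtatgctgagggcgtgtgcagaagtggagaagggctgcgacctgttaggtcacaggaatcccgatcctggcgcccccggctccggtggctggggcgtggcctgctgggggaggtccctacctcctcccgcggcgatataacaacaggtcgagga
Vim held a TATA box from 32 to 27 bases before its start, which 12.4% of 32851 promoter windows of this length hold, and CCAAT boxes from 196 to 192 and from 94 to 90 bases before it, which 33.8% hold. Krt8 and Krt18 each held an E-box, from 111 to 106 and from 214 to 209 bases before the start, as did 17.2% of the windows. GC boxes, AP-1, NF-kB and SOX sites, held by 32.7%, 6.75%, 0.356% and 3.02% of the windows, had no match in these windows. A match describes the letters only. The RefSeq starts lie downstream of the GENCODE gene starts, so all 250 bases of the Vim window, 140 of the Krt8 window and 36 of the Krt18 window fall inside the gene as GENCODE vM21 has it, the Krt8 E-box among them.

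Vim was lower in each old library than in any young library. Its normalised counts were 211, 249.7, 196 and 203 in the young and 120.2, 95.2, 183, 135 and 153 in the old libraries. The mean fell from 215 ± 24.0 (SD, n = 4) to 137 ± 33.0 (SD, n = 5), a log2 difference of -0.67 (SE 0.16, limma adjusted p = 0.00127). The log2 difference was -0.71 without young replicate 2 and old replicate 3. The ages were also apart per 1000 counts of the endothelial markers, at 90.2 to 121 in young and 36.9 to 62.6 in old libraries, and per 1000 counts of the 11 fibroblast, pericyte and mesangial markers, at 74.5 to 105 and 46.3 to 73.0. They were apart per 1000 counts of the 8 podocyte and parietal markers too, at 178 to 243 against 72.1 to 126. Per 1000 proximal tubule marker counts they overlapped (0.812 to 0.996 against 0.534 to 1.18), also without Kap (2.39 to 3.05 against 1.26 to 2.66).

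Krt8 did not pass the test. It had 281, 272, 240.2 and 252 normalised counts in the young and 279, 257, 383, 316 and 281 in the old libraries. The ages overlapped, with old replicate 3 above all others. The means were 261 ± 18.6 (SD, n = 4) and 303 ± 49.4 (SD, n = 5), apart by 0.20 on the log2 scale (95% interval -0.05 to 0.46, limma adjusted p = 0.152). Without old replicate 3 the difference was 0.12 (adjusted p 0.382 by limma), and without young replicate 2 and old replicate 3 it was 0.14 (0.381). The gene was called after rescaling without mitochondrial genes (0.35, adjusted p 0.0242 by limma) and when the length trend was removed (0.43, 0.00613).

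Krt18 did not pass the test either, and within each age its highest value was in the library with the most urothelial marker RNA. Its normalised counts were 31.9, 50.5, 25.5 and 34.4 in the young and 20.04, 16.4, 72.0, 12.1 and 21.2 in the old libraries, on 13 to 71 reads over all. The old libraries other than replicate 3 were below every young library, and old replicate 3 was the highest of all. The means were 35.6 ± 10.6 (SD, n = 4) and 28.4 ± 24.7 (SD, n = 5), a log2 difference of -0.57 (95% interval -1.35 to 0.21, limma adjusted p = 0.197). Without old replicate 3 it was -0.97 (adjusted p 0.00518 by limma), and without young replicate 2 and old replicate 3 it was -0.80 (0.0321). Leaving out the library that lay against the other old libraries fixes their order, so these p-values lend the fall no support. Among the young libraries, the order of Krt18 from lowest to highest (replicates 3, 1, 4 and 2) was the order of the summed Psca and Upk3a level. In the old libraries the lowest and the highest of both were replicates 4 and 3. Of the 7 urothelial markers listed, 2 were in the table and were tested, and 0 were called. Krt19, another keratin of urothelium and collecting duct, had 58.8 normalised counts in old replicate 3 against 0.933 to 6.36 in the other old libraries, and the collecting duct water channel gene Aqp2 had 2267 against 334 to 694. The part of urothelial or collecting duct RNA in the keratin values was not tested. In the last 500 bases of the Krt18 transcript, 1.11% of the 50-base sequences are shared with the gene Gm5200. None is shared for the other 7 members tested.

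**Figure D3:**
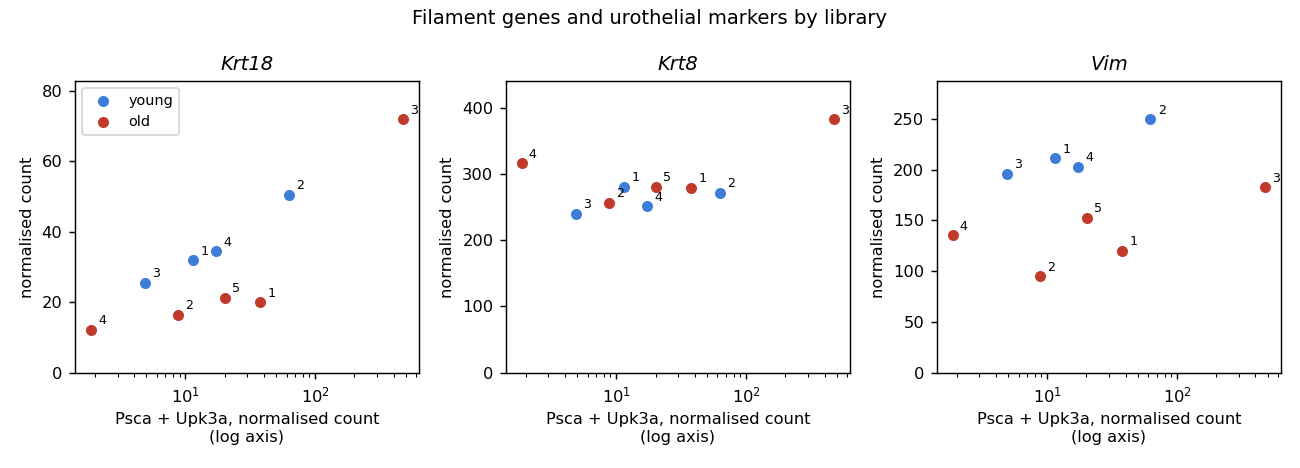
Normalised counts of Krt18, Krt8 and Vim (vertical axes, from 0) against the summed normalised counts of the urothelial markers Psca and Upk3a (log axis) in the 4 young (blue) and 5 old (red) libraries; digits are replicate numbers. Old replicate 3, at 475 on the horizontal axis, has the highest Krt18 and Krt8 of all 9 libraries, and Vim of the old libraries stays below the young ones along the axis.

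A ratio within a library does not depend on its scaling, except here through the 1 added to each normalised count. That added 1 weighs most where Krt18 is low. The log2 ratio of Krt8 + 1 to Krt18 + 1 was 3.10, 2.41, 3.19 and 2.84 in the young and 3.74, 3.89, 2.40, 4.59 and 3.67 in the old libraries. Old replicate 3 was the lowest of all 9 libraries, and the other old libraries were above every young library. The mean was 2.88 ± 0.35 (SD, n = 4) in young and 3.66 ± 0.80 (SD, n = 5) in old kidneys, a difference of 0.78 (exact permutation test over 126 splits, two-sided p = 0.127, smallest possible 0.00794). Without old replicate 3 the difference was 1.09, for which no p is given because leaving out the library that lay against the rest fixes the order.

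Genes that accompany injury and repair were then counted in 4 lists with 100 genes in all, of which 77 were in the table and 73 were tested. Of these, 32 were called higher and 15 lower (64.4%, beside 59.7% of all genes), and the median log2 difference was 0.34. Among the listed genes named here as rising or falling, the largest limma adjusted p was 0.0188, that of Slc22a17. The list of transcription factors and cell cycle genes had 7 of 18 tested genes called higher, 3 lower and 8 not called, with a median of 0.37. That is 55.6% called, beside 59.7% of all genes (29.2% higher and 30.5% lower). In this list Cdkn1a (p21, a brake on cell division) rose by 1.97 on the log2 scale, Pax2, a nephron lineage factor, by 1.33 and the immediate early gene Egr1 by 0.995. Hes1, a target of Notch signalling, fell by 1.86 on the log2 scale and Junb by 1.14. Sox4, a relative of Sox9, fell from a mean of 336 to 168 normalised counts. Hes1 had 288 to 346 normalised counts in young and 62.5 to 105 in old libraries. Rescaling without mitochondrial genes raised the number called higher in this list from 7 to 11.

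Of 16 tested genes of secreted, complement and clotting proteins, 8 were called higher and 2 lower, and the median log2 difference was 0.33. This is 62.5% called, beside 59.7% of all genes (29.2% higher and 30.5% lower). The complement component C3 had 24.5 ± 6.17 normalised counts in young (SD, n = 4) and 94.6 ± 38.7 in old (SD, n = 5), a rise of 1.85 on the log2 scale. Pigr, the receptor that carries polymeric immunoglobulins across epithelium, rose by 1.34 and the macrophage growth factor gene Il34 by 1.02 on the log2 scale. Cfb, complement factor B, fell by 1.75 on the log2 scale. Leaving out any of the 4 young replicates left 1 gene called lower in place of 2, as did removal of the length trend.

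In the epithelial cytoskeleton and plasticity list 8 of 25 tested genes were called higher and 7 lower, with a median of 0.06 on the log2 scale. These calls make 60.0%, beside 59.7% of all genes (29.2% higher and 30.5% lower). Anxa2, a membrane-binding annexin, rose by 1.27 on the log2 scale, the heme-degrading enzyme gene Hmox1 by 1.09 and the scaffold gene Akap12 by 0.69. Ccn2, which encodes connective tissue growth factor, fell by 2.67 on the log2 scale, with 229 to 325 normalised counts in young and 29.5 to 68.1 in old. The annexin partner gene S100a11 fell by 1.39 on the log2 scale and the integrin gene Itgb6 by 1.34.

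Of 17 tested binding partners of the members, 11 were called higher and 3 lower, 82.4% beside 59.7% of all genes, and their median log2 difference was 0.53. The number called higher was 6 when the length trend was removed. Lrp2 (megalin), an endocytic receptor that takes up Lcn2 and clusterin, had 3051 ± 287 normalised counts in young (SD, n = 4) and 5913 ± 708 in old (SD, n = 5), a rise of 0.95 on the log2 scale. Dsp, the desmosomal anchor of keratin filaments, rose by 1.80 in log2 units and Msn, a membrane-cytoskeleton linker gene, by 0.93. The junctional plaque gene Jup fell by 1.30 on the log2 scale, the integrin gene Itgb5 by 0.65 and Slc22a17, which encodes an Lcn2 receptor, by 0.41. Slc40a1, the iron exporter that works with ceruloplasmin, had 81.4 to 121 normalised counts in young and 146 to 209.8 in old libraries (log2 fold change 0.91).

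**Figure D4:**
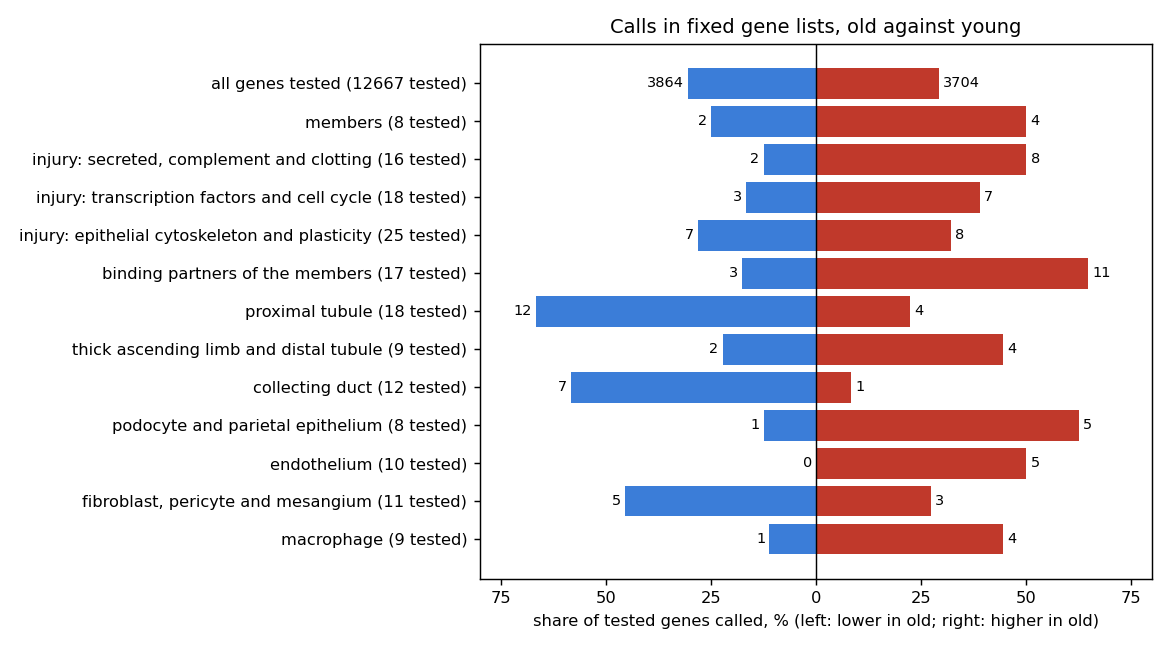
Share of tested genes called higher (right, red) or lower (left, blue) in old kidneys, in percent, for all genes tested, for the members and for each list with at least 8 tested genes; digits at the bars are numbers of genes. Among all genes 3704 were called higher and 3864 lower, and the proximal tubule list has 12 of 18 genes called lower.

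Markers of the cell types in the tissue were counted in the same way, beside 29.2% of all genes called higher and 30.5% lower. Of 18 proximal tubule markers, 12 were called lower and 4 higher (median log2 fold change -0.45), and their summed level was 226071 to 260098 normalised counts in young and 154145 to 211084 in old libraries. Kap alone had 141046 to 173437 in young and 84037 to 123051 in old, and the other 17 markers summed to 81753 to 86662 in young and 68521 to 88033 in old, which overlapped. Of 12 tested collecting duct markers, 7 were called lower and 1 higher, and of 8 podocyte and parietal markers 1 lower and 5 higher. The 11 fibroblast, pericyte and mesangial markers had 5 called lower and 3 higher. Of 10 neutrophil markers, 3 were tested and 1 was called, lower, and their summed level was 54.9 to 79.7 in young and 22.3 to 40.1 in old. The called gene was Cxcr2, with 33.3 to 60.7 in young and 3.73 to 13.1 in old, and the other 2, S100a8 and S100a9, summed to 16.5 to 28.7 and 12.03 to 28.3. Of 10 genes on the lymphocyte list, 4 were in the table, and 3 were tested and called higher. These were Ighm, Jchain, whose ages overlapped, and Ptprc, which is not confined to lymphocytes. The T cell gene Cd3e was not tested. With Cd3e included, the sums were 67.0 to 147 in young and 208 to 1189 in old, the highest in old replicate 3. The 4 tested adipocyte and muscle markers had 1 called lower. Their part in the members' changes was not tested.

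The genes with the most similar pattern over the 9 libraries were named by Pearson's r of log2 values, a measure that the difference between ages dominates and that carries no test. For Sox9 they were Acvrl1, Nipsnap1 and Ceacam2 (0.975 to 0.961), for Vcam1 Atf7ip, Meis2 and Rpl10a (0.977 to 0.964) and for Clu Fgd1, 4632415L05Rik and Zfp512b (0.990 to 0.975). For Vim they included Dgkh and Dnajc9 (0.986 and 0.959), for Spp1 they were Atat1, Ppp1r16a and Hcfc1 (0.942 to 0.922) and for Cp they included Pafah1b1 and Ints13 (0.960 and 0.938). Krt8 was most like Sh3pxd2a, Mgll and Rnf139 (0.946 to 0.925), and Krt18 most like Pfkfb3, Eif4ebp1 and Dcn (0.942 to 0.914).

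**Figure D5:**
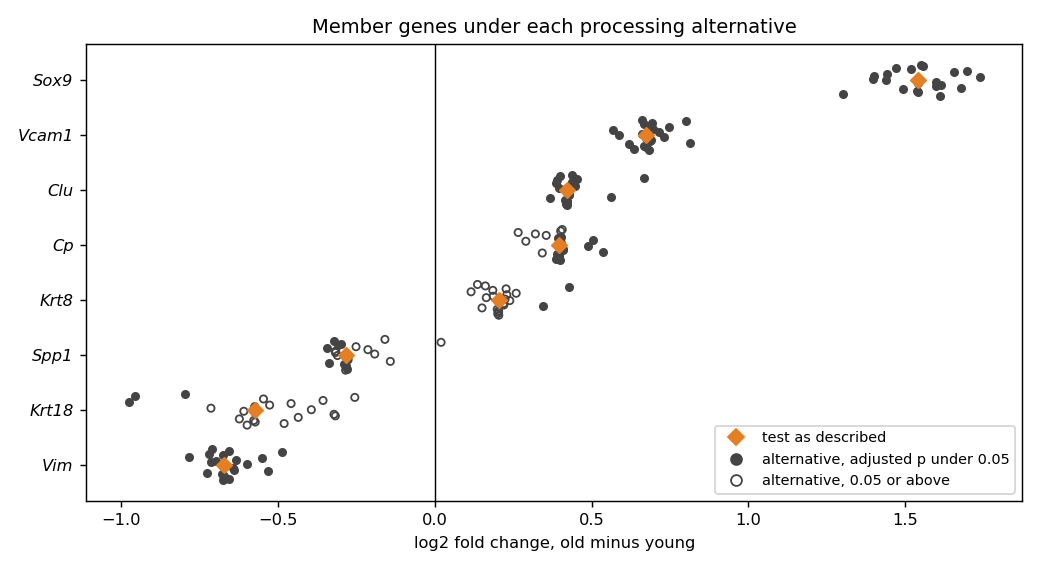
Log2 fold change of each member (horizontal axis) in the test as described (orange diamonds) and under each processing alternative (circles, filled where the adjusted p-value was under 0.05). Vim, Clu, Vcam1 and Sox9 have filled circles only, Spp1 runs from -0.34 to 0.021 and Krt18 from -0.97 to -0.25.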

How the data were processed

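Kidney RNA of young (n = 4) and old (n = 5) wild-type mice was converted to 3' end libraries from oligo(dT) primers. Per the labels and the study's methods, the authors aligned reads to GRCm39 with TopHat2 2.0.10 and counted them by strand with HTSeq 0.6.1 on GENCODE vM26. What was deposited is a signal: read counts per gene that the authors had divided by DESeq size factors. Dividing each library by its smallest positive value gave whole reads (tolerance 0.001) for 100% of values. Low genes are absent by a rule not given in the sources used here, and the lowest mean of any listed gene was 4.49 normalised counts.

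Old was tested against young with limma 3.58.1 (R 4.3.3, eBayes with a variance trend) on log2(normalised count + 1), for genes reaching 10 normalised counts in 4 or more libraries, with p-values adjusted by Benjamini-Hochberg across all 12667 genes. Fold changes on this scale are understated for genes with low counts. The members, lists and tests were chosen with earlier results of these data known. All members are named, with the 3 largest called rises and falls of each pathway list (mean of at least 50 normalised counts) and the 3 most similar genes of each member, of which 1 for Vim and 1 for Cp are not reported here. Slc40a1 and the marker genes Psca, Upk3a, Adipoq, Krt19, Aqp2, Kap, Umod, Cxcr2, S100a8 and S100a9 were named after their values were seen. So were the marker genes Ighm, Jchain, Ptprc and Cd3e. Alternatives were, on recovered reads, DESeq2 1.42.0 and edgeR 4.0.16, and other pseudocounts (0.1 and 5), filters and scalings, and leaving out libraries. After the data were seen, removal of a transcript length trend and the joint omission of young replicate 2 and old replicate 3, or of old replicates 2 and 3, were added, as were marker sums without the most abundant gene of each list. Positions came from GENCODE vM21 on GRCm38, not the authors' build, matched by symbol. Upstream sequences came from a table of RefSeq starts (GRCm38.p6), in which 7 of the 10 symbols were matched. Those of Vcam1, Clu and Sox9 were not analysed here. A floor of 3 reads was 4.72e-05% of the reads in the deepest and 6.69e-05% in the shallowest library, for counting error only.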

Additional observations from a re-analysis of the deposited data

Results flagged for a closer look

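Spp1 in young replicate 2 stood at 9.15 on the log2 scale, and at 8.77 to 8.79 in the other young libraries. Its gap to the nearest of them was 0.948 of the range of the 4 libraries. In all, 48 sets of 4 or 5 libraries were examined in this way (members, summed lists and the keratin ratio) and 1 stood apart, where chance gives about 2.4. Without young replicate 2 the log2 fold change of Spp1 was -0.19 (adjusted p 0.2097 by limma).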

How the results depend on the processing

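The number of members called lower was 1 in place of 2 with a pseudocount of 0.1, after rescaling without mitochondrial genes, with edgeR, with DESeq2 and with the length trend removed, in each case with Spp1 not called. Leaving out 1 library gave 1 to 2 members called lower, 3 to 4 higher, 4 to 6 in all, 40 to 50 listed genes (28 to 33 higher and 12 to 17 lower), 6756 to 7561 of all genes and a keratin ratio difference of 0.54 to 1.09. A minimum mean of 100 normalised counts leaves fewer genes to test, and with it 2 members were called higher (4), 31 listed genes (47), 19 of them higher (32), and 4101 of all genes (7568). The keratin ratio difference was 0.93 without young replicate 2 and old replicate 3. The log2 fold change of Spp1 turned to 0.021 with the length trend removed, and the cause was not tested. Of 173 values of single members under alternatives, 147 kept direction and call, 20 lost the call, 5 gained it and 1 changed direction. Rescaling without mitochondrial genes shifted the median log2 fold change of all genes to 0.13 and the share of calls that were higher from 48.9% to 58.5%. Vcam1, Sox9 and Krt18 were not tested under the minimum mean of 100. No paired analysis was possible because the labels give no number shared between the ages.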
